A study of Mus musculus with 45 samples.

Results

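The interferon regulatory factors (IRFs) are a family of transcription factors, and 8 of their genes, *Irf1*, *Irf2*, *Irf3*, *Irf4*, *Irf5*, *Irf7*, *Irf8* and *Irf9*, were followed by gene symbol through all 3 count tables of the series. All 8 were listed in each table, among 55450 genes for microglia from brain slices, 47643 for microglia from adult mice and 43411 for brain tissue. The 45 libraries came from C57BL/6 mice and formed 7 groups. Organotypic brain slices prepared from newborn pups were kept for 2 weeks in culture and then given medium alone (n = 9), TNF at 50 ng/mL (n = 11) or GM-CSF at 20 ng/mL (n = 9) for 24 h, each library holding the microglia of 3 pooled slices per the series' design text, or of 2 to 3 per the study's methods. Female mice of 10 to 15 weeks were injected intraperitoneally with LPS, the lipopolysaccharide of Gram-negative bacteria, at 1 mg/kg or with PBS, and microglia were isolated after 24 h (n = 4 each). Whole brain tissue was taken from mice of the same ages 24 h after LPS at 1 mg/kg and from mice that received no injection (n = 4 each), so that the brain tissue control was not a PBS control. All microglia were sorted as live cells, high for CD11b and intermediate for CD45. The titles of the in vivo libraries carry WT, for wild type, and no label gives a genetic alteration for any group. The labels number the samples of a group without naming animals. The study describes the in vivo LPS reference samples as 4 per group from independent mice. Their p-values thus measure the spread between mice, and those of the slice libraries the spread between pooled samples. The slice titles carry the codes 1A, 1B, 2A and 2B, whose meaning is not given in the labels. The study describes the slice data as pooled from 4 experiments, and the sources used here do not tie libraries to them.

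IRFs share a DNA-binding domain that recognises GAAA repeats in the interferon-stimulated response element (ISRE). IRF3 and IRF7 are activated by the kinases TBK1 and IKKε downstream of pattern recognition receptors and switch on type I interferon genes, and IRF5 acts downstream of MyD88 on cytokine genes. Interferon binding to its receptor activates JAK kinases, and IRF9 then acts in the complex ISGF3 with STAT2, which drives interferon-stimulated genes, *Irf7* among them. IRF1 is itself induced by interferon gamma through gamma-activated sites (GAS) and by TNF through NF-κB, whereas IRF2 competes with it for the same DNA sites. IRF8, with its partner PU.1 (*Spi1*), is required for microglia and other myeloid cells, and IRF4 is best known from B cells, T cells and alternatively activated macrophages.

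In GRCm38 coordinates of the GENCODE M21 annotation, *Irf1* (ENSMUSG00000018899) spans chromosome 11, 53770014 to 53778374, *Irf4* (ENSMUSG00000021356) chromosome 13, 30749226 to 30766976, and *Irf8* (ENSMUSG00000041515) chromosome 8, 120736358 to 120756694, all on the plus strand. *Irf7* (ENSMUSG00000025498) lies on the minus strand of chromosome 7, 141262706 to 141266481, and *Irf9* (ENSMUSG00000002325) on the plus strand of chromosome 14, 55603571 to 55610030. *Irf2* (ENSMUSG00000031627, chromosome 8, 46739732 to 46847458), *Irf3* (ENSMUSG00000003184, chromosome 7, 44997648 to 45002848) and *Irf5* (ENSMUSG00000029771, chromosome 6, 29526625 to 29541871) are on the plus strand. The stretches before the start sites of *Irf1*, *Irf4*, *Irf7* and *Irf8* are shown because these genes passed the test in at least 1 comparison and the members differed in the motifs found there. They are RefSeq sequences of build GRCm38.p6, taken from up to 250 bases before each gene's start and limited to bases outside annotated GENCODE M21 exons. Of the RefSeq windows, 1 entry was given for 5 members and 2 for *Irf1*, *Irf8* and *Irf9*, and the first entry is shown. The windows of *Irf9* lay wholly or partly in annotated exons and are not shown. The *Irf1* stretch is chr11:53769764-53770013 on the plus strand, the *Irf4* stretch chr13:30748983-30749225 on the plus strand, the *Irf7* stretch chr7:141266482-141266674 on the minus strand and the *Irf8* stretch chr8:120736108-120736357 on the plus strand. Capitals mark matches to the GAS letters TTCNNNGAA or to the NF-κB consensus, searched as GGRNNNYYCC. N stands for any base, R for A or G and Y for C or T.
Irf1: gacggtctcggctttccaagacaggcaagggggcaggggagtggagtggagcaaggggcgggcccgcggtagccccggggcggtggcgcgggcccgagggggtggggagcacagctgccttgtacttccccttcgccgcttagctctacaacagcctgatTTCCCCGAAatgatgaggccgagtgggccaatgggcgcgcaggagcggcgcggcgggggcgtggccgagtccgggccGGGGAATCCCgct
Irf4: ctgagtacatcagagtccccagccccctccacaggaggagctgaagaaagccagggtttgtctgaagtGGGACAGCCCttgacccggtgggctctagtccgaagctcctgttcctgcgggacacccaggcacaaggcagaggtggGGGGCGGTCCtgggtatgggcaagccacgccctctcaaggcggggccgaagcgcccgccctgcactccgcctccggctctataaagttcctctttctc
Irf7: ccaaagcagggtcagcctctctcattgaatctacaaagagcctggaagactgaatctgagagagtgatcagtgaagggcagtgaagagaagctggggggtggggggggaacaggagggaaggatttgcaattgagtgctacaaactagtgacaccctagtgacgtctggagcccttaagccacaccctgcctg
Irf8: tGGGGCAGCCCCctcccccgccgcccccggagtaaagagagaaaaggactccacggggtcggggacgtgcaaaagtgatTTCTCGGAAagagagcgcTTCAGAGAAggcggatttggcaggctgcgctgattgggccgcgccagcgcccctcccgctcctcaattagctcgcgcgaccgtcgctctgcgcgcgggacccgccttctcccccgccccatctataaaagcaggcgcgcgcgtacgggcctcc

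Both strands of the 250 bases were searched for the ISRE core GAAANNGAA, for GAS, for the ETS-IRF composite GGAANNGAA, whose matches can overlap those of the ISRE core, and for the NF-κB consensus. The *Irf1* window held 1 GAS match, 90 to 82 bases before the start, and 1 NF-κB match, 13 to 4 bases before it. The first *Irf8* window held 2 GAS matches, at 171 to 163 and 153 to 145 bases before the start, together with 2 overlapping NF-κB matches, and the *Irf4* window held 2 NF-κB matches. The *Irf2* window held 1 ISRE core, 1 ETS-IRF composite overlapping it, 1 GAS and 2 NF-κB matches, and the *Irf5* window 1 NF-κB match. The *Irf3*, *Irf7* and *Irf9* windows and the second windows of *Irf1* and *Irf8* held none of these letters. Among all 32851 promoter windows, 7.13% held the ISRE core, 7.02% GAS, 6.99% the ETS-IRF composite and 23.2% the NF-κB consensus. A match describes the sequence and is not evidence of binding.

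Total counts ranged from 5973364 to 9165485 per slice library, from 11391564 to 14216005 per adult microglia library and from 8199863 to 10368578 per brain tissue library. Levels are given as CPM, the count divided by the library's total in units of 1e6, after TMM scaling within a table, and the tables were scaled separately, so levels set side by side across them are descriptive. Genes were compared with each other only as RPKM, the CPM per kilobase of annotated exon. A gene was called when the Benjamini-Hochberg adjusted p of the edgeR quasi-likelihood test was below 0.05 and its fold change exceeded 1.5, over all genes tested in the table. Overlap between groups is given as a description of the members and was no part of a call. How common a lack of overlap is among all genes was not tested. All 8 microglia marker genes were detected in each group. Their summed level was 16626 to 24108 CPM in medium slices and 53207 to 59454 CPM in microglia of PBS mice, against 273 to 313 CPM in untreated brain tissue. The 4 T and NK cell markers were at 0 in all adult microglia libraries and summed to at most 1.40 CPM in the slice libraries.

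*Irf8* and *Irf5*, the myeloid members, made up most of the family's signal in microglia. In medium slices, *Irf8* stood at 132 ± 7.56 RPKM (SD, n = 9) and *Irf5* at 123 ± 15.2 RPKM, 43.0% and 40.3% of the 8 members' summed RPKM. The other 6 members lay between 0.224 RPKM for *Irf4* and 13.8 RPKM for *Irf9*. Microglia of PBS mice had *Irf5* first, at 195 ± 8.20 RPKM (n = 4), and *Irf8* second, at 106 ± 3.46 RPKM, 50.9% and 27.7% of the family. Untreated brain tissue showed another order, led by the widely expressed *Irf3* at 5.31 ± 0.594 RPKM and *Irf2* at 3.14 ± 0.279 RPKM, with *Irf8* at 0.621 RPKM, 4.14% of the family. After TNF, *Irf7* became the highest member of slice microglia at 141.7 ± 35.8 RPKM (n = 11), 30.3% of the family against 2.05% in medium.

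**Figure D1:**
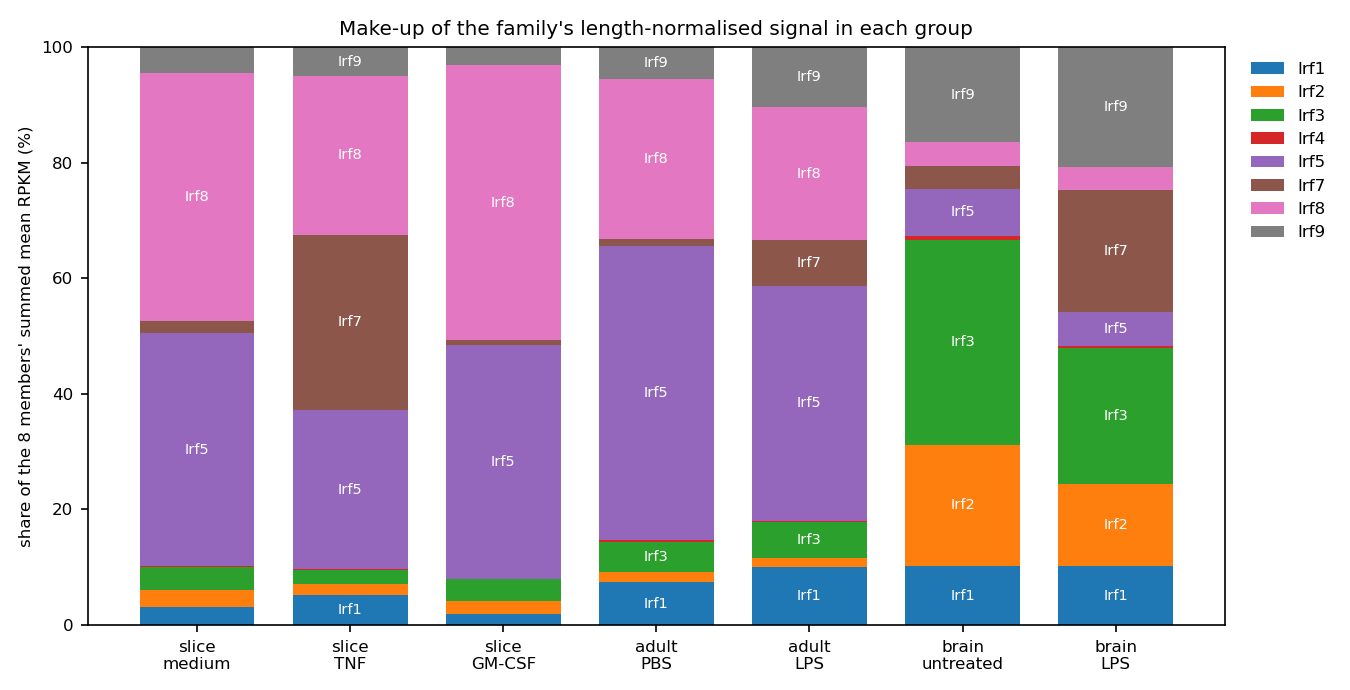
Share of each member in the summed mean RPKM of the 8 genes (y axis, percent) in the 7 groups (x axis). *Irf5* and *Irf8* fill most of each microglia bar, *Irf7* rises from 2.05% in medium slices to 30.3% after TNF, and *Irf3* leads in brain tissue.

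Ordered by group, *Irf7* CPM was highest in TNF slices, where the lowest library (364 CPM) was above the highest of any other group (137 CPM, LPS microglia). *Irf8* CPM did not overlap between the slice groups, at 819 CPM or more, and PBS microglia, at 769 CPM or less, nor between PBS and LPS microglia. Among themselves, the 3 slice groups overlapped for *Irf2*, *Irf3*, *Irf5* and *Irf8*. After TNF slices and LPS microglia, *Irf7* followed in medium slices, LPS brain tissue, PBS microglia and GM-CSF slices, each overlapping the next, and untreated tissue was lowest without overlap. *Irf9* was highest in LPS microglia, overlapping TNF slices, which overlapped PBS microglia, and the remaining 4 groups did not overlap their neighbours. *Irf1* ran from LPS microglia through PBS microglia to TNF slices with overlap, and TNF slices did not overlap medium slices. *Irf5* was highest in PBS microglia, apart from all other groups. *Irf4* was the lowest member per exon length in every group, and its level was 7.36 ± 0.381 CPM in PBS microglia (n = 4), with group means of 1.10 CPM or less in the slice and brain groups.

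**Figure D2:**
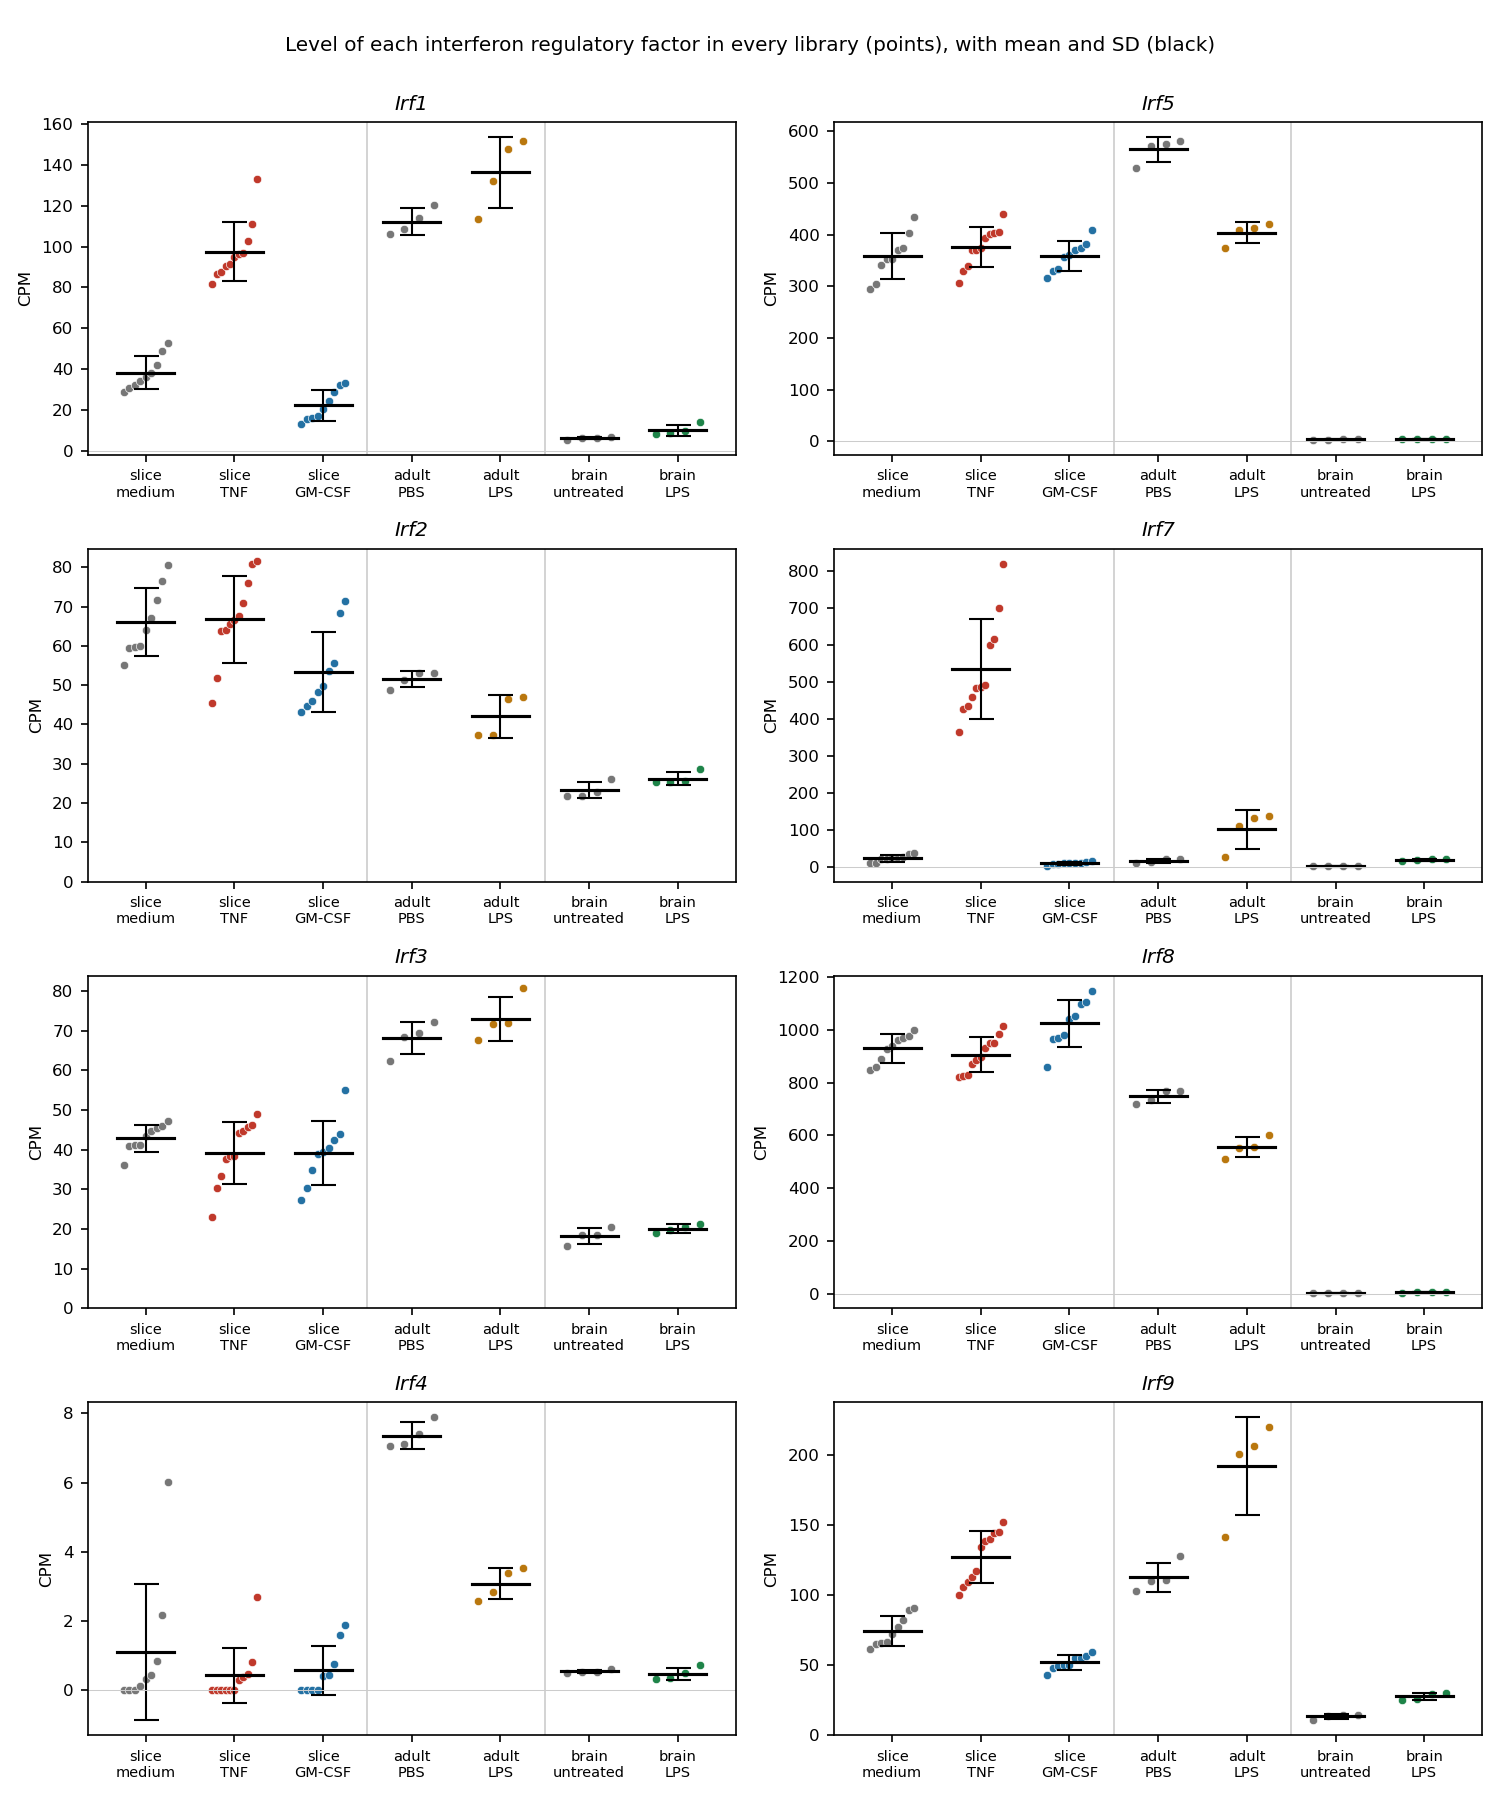
Level of each member (y axis, CPM after TMM scaling within each table) in every library (points) of the 7 groups, with the group mean and SD in black and grey lines between the separately scaled tables. All 11 TNF libraries lie above all 9 medium libraries for *Irf1*, *Irf7* and *Irf9*, while those of *Irf5* and *Irf8* overlap.

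TNF, the cytokine signalling through TNF receptors to NF-κB, was compared with medium to find which members respond to it in microglia kept in tissue. *Irf7*, *Irf1* and *Irf9* rose, and *Irf2*, *Irf3*, *Irf5* and *Irf8* did not pass. *Irf4* was too low to be tested. That is 3 of 7 members tested, all higher, where 20.8% of the 11313 genes tested were called (9.1% higher and 11.7% lower). The median log2 change was 0.07 over the 7 members and -0.03 over all genes.

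*Irf7*, which amplifies type I interferon production, ranged in medium from 10.9 CPM through a median of 23.1 CPM to 37.7 CPM, and with TNF from 364 CPM through 488 CPM to 819 CPM. The ranges were far apart, and all 11 TNF libraries were above all 9 medium libraries. The difference was 22.5-fold, a log2 change of 4.49 (SE 0.234, 95% interval 4.01 to 4.97, adjusted p = 4.72e-16), the 85th smallest p of the table. *Irf1*, the activator induced by interferon gamma, went from 28.96, 36.1 and 52.5 CPM (lowest, median, highest) to 81.5, 94.7 and 133 CPM. It too did not overlap, with a log2 change of 1.35 (SE 0.145, adjusted p = 1.33e-09), or 2.55-fold. *Irf9*, the DNA-binding part of ISGF3, went from 61.6, 71.8 and 90.3 CPM to 99.5, 134 and 152 CPM. Its log2 change was 0.77 (SE 0.0890, adjusted p = 6.31e-09), the smallest of the 3, and again every TNF library was above every medium library. Within the 4 title codes the log2 difference was 4.46 to 5.13 for *Irf7*, 0.83 to 1.54 for *Irf1* and 0.40 to 1.08 for *Irf9*, with code 1B resting on a single medium library.

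The other members tested moved little with TNF. *Irf8* had 846, 939.9 and 998 CPM in medium and 819, 895 and 1015 CPM with TNF, a log2 change of -0.04 (95% interval -0.15 to 0.07, adjusted p = 0.622). *Irf5* changed by 0.07 (interval -0.07 to 0.21), *Irf2*, the antagonist of IRF1, by 0.02 (interval -0.20 to 0.23) and *Irf3*, the latent virus-activated factor, by -0.13 (interval -0.37 to 0.11). Each of these intervals stays inside a 1.5-fold change in either direction. *Irf4* had at most 17 counts in any TNF library. The 8 microglia markers summed to 9048 to 12043 CPM with TNF, below all medium libraries, and 6 of 8 were called lower. The 4 neutrophil markers summed to 2.00 to 111 CPM with TNF and 0.134 to 13.96 CPM in medium, with *Ly6g* at 0 in both groups, and 1 of 2 tested was called higher. Of 3 oligodendrocyte markers tested, 1 was called higher. The 4 border macrophage markers summed to 35.1 to 108 CPM with TNF and 89.5 to 213 CPM in medium, and 2 of 4 were called lower. The part of these shifts in the members' values was not tested.

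GM-CSF, the myeloid growth factor, was compared with the same 9 medium libraries, so that both cytokine comparisons share their controls. Here 2 of 7 members tested fell, *Irf7* and *Irf1*, and none rose, where 10.8% of the 11313 genes were called (4.84% higher and 5.96% lower). Scaled by library totals alone, 64.0% of the called genes were higher, against 44.8% with TMM. The members' median log2 change was -0.31 and that of all genes -0.04. *Irf7* had 3.05, 10.7 and 16.4 CPM with GM-CSF, a fall of 2.33-fold (log2 change -1.22, SE 0.238, adjusted p = 0.000216). The groups overlapped, with 5 of 9 GM-CSF libraries below every medium library. *Irf1* had 13.1, 20.6 and 33.4 CPM, a fall of 1.72-fold (log2 change -0.78, SE 0.153, adjusted p = 0.000166), and 7 of 9 libraries were below every medium library. It was lower in each of the 4 title codes, by 1.35 in code 1B but only 0.22 in code 2B on the log2 scale. In codes 2A and 2B alone it was not called (log2 change -0.44, adjusted p = 0.139).

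*Irf9* was lower too, but within the fold limit. Its 9 GM-CSF libraries, at 42.6 to 59.5 CPM, were all below the lowest medium library at 61.6 CPM, and the log2 change of -0.52 (SE 0.0934, adjusted p = 4.88e-05) is 1.43-fold. *Irf2* had a log2 change of -0.31 (adjusted p = 0.0382), also under the fold limit. *Irf8* had 859.8, 1041 and 1148 CPM, a log2 change of 0.14 (interval 0.03 to 0.25, adjusted p = 0.0656), with 5 of 9 libraries above every medium library. The changes of *Irf3* (-0.13, interval -0.38 to 0.12) and *Irf5* (0.00, interval -0.14 to 0.15) did not pass. The 8 microglia markers summed to 11590 to 13448 CPM with GM-CSF, below all medium libraries, and 6 of 8 were called lower. Border macrophage markers summed to 134 to 299 CPM and neutrophil markers to 1.08 to 36.6 CPM. Their part in the members' values was not tested.

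The direct contrast of the cytokines called 3 of 7 members, all higher with TNF, where 16.2% of genes were called (8.25% higher and 7.96% lower). Scaled by library totals alone, 31.4% of the called genes were higher, against 50.9% with TMM. The members' median log2 difference was 0.32 and that of all genes -0.02. *Irf7* was 52.3-fold higher with TNF (log2 difference 5.71, SE 0.253, adjusted p = 1.35e-17), *Irf1* 4.38-fold (2.13, adjusted p = 6.40e-14) and *Irf9* 2.45-fold (1.29, adjusted p = 5.04e-14). None of the 3 overlapped between the cytokines, and the share of all genes without overlap was not tested. *Irf8* was lower with TNF by 0.18 and *Irf2* higher by 0.32 on the log2 scale, with adjusted p of 0.0100 and 0.0182 but neither past the fold limit. The differences of *Irf3* (0.00, interval -0.24 to 0.24) and *Irf5* (0.07, interval -0.07 to 0.21) did not pass.

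**Figure D3:**
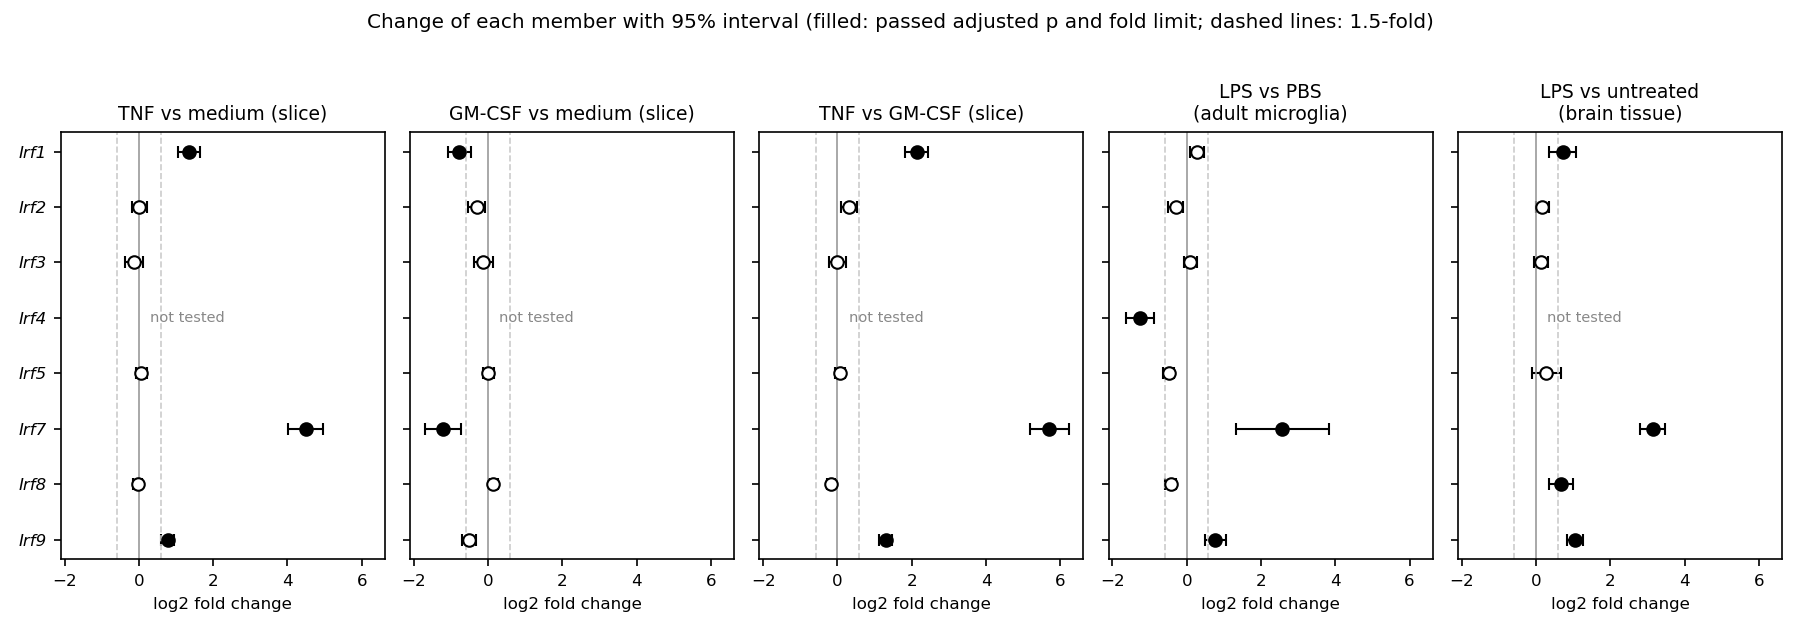
Log2 fold change of each member (x axis) with its 95% interval in the 5 comparisons, filled where the gene was called and open where it was not, with dashed lines at 1.5-fold. *Irf7* is right of the 1.5-fold line in all comparisons but GM-CSF against medium, where it lies left, while *Irf3* stays near 0 throughout.

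LPS given to mice was compared with PBS in sorted adult microglia. *Irf7* and *Irf9* rose and *Irf4* fell, 3 of 8 members tested, where 27.4% of the 12987 genes tested were called (14.4% higher and 13.0% lower). The members' median log2 change was -0.10 and that of all genes 0.01. *Irf7* was at 20.6, 22.1, 11.4 and 13.8 CPM in the PBS libraries and at 137, 26.3, 111 and 132 CPM in the LPS libraries. Replicate 2 of LPS stood far below the other 3 and just above the PBS range. The change was 5.97-fold (log2 2.58, SE 0.530, interval 1.33 to 3.83, adjusted p = 0.00535), and without that library it was 2.90 on the log2 scale (adjusted p = 8.91e-06). *Irf9* went from 110.3, 127, 103 and 109.6 CPM to 219, 141, 206 and 201 CPM, a log2 change of 0.77 (SE 0.126, adjusted p = 0.000464). The LPS libraries were all above the PBS libraries, replicate 2 again being the lowest, and the log2 change without it was 0.89. All 15 genes of the pathway lists that rose in adult microglia had their lowest LPS value in this library as well.

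*Irf4*, at a level near the lower end of what was tested, went from 7.89, 7.10, 7.40 and 7.05 CPM to 2.84, 2.56, 3.37 and 3.53 CPM. The groups did not overlap, and the change was 2.38-fold down (log2 -1.25, SE 0.176, adjusted p = 0.000106) on 92 to 110 counts per PBS library and 30 to 48 per LPS library. *Irf5* was lower in every LPS library, at 409.6, 412, 421 and 374 CPM against 530.0, 576, 582 and 572 CPM. *Irf8* went the same way, from 769, 721, 769 and 735 CPM to 603, 556, 512 and 553 CPM. For neither did the groups overlap, but the log2 changes of -0.48 (SE 0.0650, adjusted p = 7.75e-05) and -0.43 (SE 0.0673, adjusted p = 0.000239) are 1.40-fold and 1.35-fold and do not pass the fold limit. *Irf1* (log2 change 0.28, adjusted p = 0.0216) and *Irf2* (-0.29, adjusted p = 0.0207) were under the limit too, and *Irf3* changed by 0.10 (interval -0.07 to 0.26). The 8 microglia markers summed to 36384 to 41178 CPM after LPS, below all PBS libraries, and 3 of 8 were called lower. Neutrophil markers summed to 15.5 to 36.7 CPM with PBS and 1.61 to 4.73 CPM with LPS, where *Ly6g* and *Retnlg* were at 0. Border macrophage markers summed to 8.44 to 14.3 CPM with PBS and 12.8 to 20.8 CPM with LPS. Monocyte markers summed to 6.76 to 8.47 CPM with PBS and 4.29 to 6.04 CPM with LPS, and 1 of 2 tested was called lower. Endothelial markers summed to 28.9 to 36.2 CPM with PBS and 10.1 to 13.7 CPM with LPS, with *Cldn5* at 0 in both and the 1 tested gene called lower. Oligodendrocyte markers summed to 74.7 to 87.2 CPM and 57.8 to 67.4 CPM, and 1 of 3 tested was called lower. The part of these markers in the members' values was not tested.

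In brain tissue, LPS was compared with no injection, and 4 of 7 members tested rose with none lower: *Irf7*, *Irf9*, *Irf1* and *Irf8*. Of the 15083 genes tested, 3.18% were called (2.63% higher and 0.55% lower), and the median log2 change was 0.68 over the members and 0.00 over all genes. In a tissue, more cells of a type and more RNA per cell cannot be told apart. *Irf7* was at 2.11, 1.94, 2.89 and 1.98 CPM untreated and at 16.1, 22.1, 20.3 and 20.6 CPM after LPS. The groups were widely separated, and the 8.83-fold rise (log2 3.14, SE 0.155, adjusted p = 4.39e-09) had the sixth smallest p of all genes. *Irf9* went from 10.8, 13.3, 14.6 and 14.5 CPM to 30.3, 29.5, 25.7 and 25.1 CPM, a 2.08-fold rise (log2 1.06, SE 0.103, adjusted p = 7.20e-06) with no overlap.

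*Irf1* and *Irf8* rose by smaller amounts. *Irf1* went from 5.42, 6.01, 6.61 and 6.25 CPM to 8.63, 7.999, 13.9 and 9.53 CPM, a log2 change of 0.72 (SE 0.168, adjusted p = 0.0122). Replicate 3 of LPS was the highest, and without it the change was 0.52 (adjusted p = 0.0141) and no longer past the fold limit. *Irf8* went from 4.51, 4.07, 3.92 and 5.004 CPM to 6.11, 7.29, 7.24 and 7.40 CPM, a log2 change of 0.68 (SE 0.148, adjusted p = 0.00791) with no overlap. *Irf5* (0.28, interval -0.12 to 0.68), *Irf2* (0.17, interval 0.00 to 0.35) and *Irf3* (0.14, interval -0.06 to 0.33) did not pass, and *Irf4*, with 3 to 6 counts per library, was not tested. The microglia markers, all 8 detected, summed to 273 to 313 CPM untreated and 232 to 382 CPM after LPS. Of the 8, 2 were called lower and none higher, while their median log2 change was 0.29 (lowest -1.57, highest 0.66). The 3 neutrophil markers listed summed to 0.388 to 0.826 CPM untreated and 2.65 to 6.72 CPM after LPS, and border macrophage markers to 2.29 to 3.72 CPM and 5.49 to 6.27 CPM with *Mrc1* at 0. Endothelial markers summed to 125 to 144 CPM untreated and 139.8 to 199 CPM after LPS, and 2 of 4 were called higher. Oligodendrocyte markers summed to 4815 to 5169 CPM and 3532 to 4085 CPM, without overlap, and 2 of 4 were called lower. Of 4 astrocyte markers, 1 was called higher. The part of these cells in the members' rise was not tested.

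Whether LPS acted differently on the members in sorted microglia and in whole brain tissue was tested as an interaction over both tables. Of 8 members, *Irf8* and *Irf5* differed, both with the lower change in microglia, where 19.7% of the 16676 genes tested were called (9.1% higher and 10.6% lower). For *Irf8* the difference of the log2 changes was -1.11 (SE 0.135, adjusted p = 3.27e-06), between -0.43 in microglia and 0.68 in tissue. For *Irf5* it was -0.77 (SE 0.161, adjusted p = 0.000916), between -0.48 and 0.28. For *Irf7* it was -0.57 with an interval of -2.22 to 1.07, too wide to show a difference or its absence, and for *Irf9* -0.30 (interval -0.67 to 0.08). *Irf1* (-0.44, adjusted p = 0.0794), *Irf3* (-0.05, adjusted p = 0.870) and *Irf4* (-1.05, adjusted p = 0.111) did not pass, and *Irf2* (-0.48, adjusted p = 0.00682) was under the fold limit. The tissue side of *Irf4* rested on 3 to 6 counts per library. The members' median difference was -0.53 and that of all genes -0.02. Of the 8 microglia markers, 5 were called lower by the same test, with a median of -0.87. Kits, read types and controls differed between the tables, which cannot be told apart from the difference between cells and tissue.

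The genes around the family were taken from lists chosen by function, with earlier results of these data known, so they are no independent check. Counts per list are to be read beside the share of all genes called. That share was 20.8% with TNF, 10.8% with GM-CSF and 16.2% between the cytokines. With LPS it was 27.4% in adult microglia and 3.18% in tissue. Of the interferon ligands and receptors, *Ifnb1* and *Ifng* were too low to be tested in any table. In TNF slices *Ifnar1*, a chain of the type I receptor, rose (log2 change 0.68, adjusted p = 1.01e-06) and *Ifngr1*, a chain of the interferon gamma receptor, fell (-0.73, adjusted p = 6.80e-11), 1 higher and 1 lower of 4 tested. *Ifngr1* was the only one of the 4 to pass with GM-CSF, a fall (-0.78, adjusted p = 2.67e-10), and no receptor gene passed after LPS in microglia or tissue. Against GM-CSF, TNF gave higher *Ifnar1* (0.85) and *Ifngr2* (0.61).

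Of the 4 JAK-STAT genes followed, *Stat2*, whose product acts with IRF9 in ISGF3, was the one that passed against controls. With TNF it rose from 31.6 to 155 CPM (log2 change 2.30, adjusted p = 2.25e-15), and with GM-CSF it fell by 0.78 on the log2 scale (adjusted p = 0.000133). Between the cytokines *Stat2* (3.07) and the kinase gene *Jak2* (0.64, adjusted p = 0.00457) were higher with TNF. After LPS *Stat2* rose in adult microglia (1.54, adjusted p = 0.00115). In brain tissue its log2 change of 0.40 (adjusted p = 0.00268) was under the fold limit, and *Jak2* was not tested.

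The 13 kinases and adaptors that activate IRFs included members that passed in each treatment. Their median log2 change was 0.04 with TNF, -0.10 with GM-CSF, 0.32 with LPS in microglia and 0.19 in tissue. With TNF 3 rose, *Ikbke*, which encodes IKKε (2.14, adjusted p = 6.64e-14), *Myd88* (1.17, adjusted p = 1.04e-11) and the ubiquitin ligase gene *Traf6* (0.63), and *Tmem173*, which encodes the DNA sensor adaptor STING, fell (-0.73, adjusted p = 2.04e-07). With GM-CSF *Slc15a4*, the lysosomal transporter needed for IRF5 activation, was the only one to pass (-0.69, adjusted p = 1.19e-05). That is 1 of 13, near the 10.8% called over all genes. In TNF against GM-CSF *Ikbke*, *Myd88* and *Traf3* were higher with TNF. LPS raised *Ikbke* and *Myd88* in adult microglia, 2 of 13, near the 14.4% called higher over all genes. *Ikbke* was between 0.144 and 0.288 CPM in PBS libraries, on 2 to 4 counts, and between 5.64 and 25.2 CPM after LPS, and *Myd88* rose by 0.81 (adjusted p = 1.12e-05). In tissue *Tmem173* rose (1.00, adjusted p = 0.00200), 1 of 12 tested, while *Ikbke* had no count in any of the 8 libraries.

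Partners and regulators of IRFs included *Usp18*, which encodes an enzyme that limits interferon receptor signalling, and it passed in all 4 treatment comparisons with controls. It rose from 18.3 to 369 CPM with TNF (4.33, adjusted p = 2.02e-17), fell with GM-CSF (-1.17, adjusted p = 0.000113) and rose with LPS in microglia (2.52, adjusted p = 0.00884) and tissue (2.32, adjusted p = 2.34e-05). With TNF the ubiquitin ligase gene *Trim21* also rose (0.72), and *Irf2bpl* (-0.78) and *Batf3* (-1.25), whose product pairs with IRF4 and IRF8, fell, 2 higher and 2 lower of 9. With GM-CSF *Irf2bpl* fell as well (-0.62), 2 lower of 9. Between the cytokines *Usp18* and *Trim21* were higher and *Batf3* lower with TNF. *Batf* rose in LPS microglia (0.96, adjusted p = 0.000343), 2 higher of 9, where 14.4% of all genes were called higher. In tissue *Spi1* rose from 2.31 to 4.26 CPM (0.89, adjusted p = 0.0258), 2 higher of 7, and *Batf* and *Batf3* were not tested.

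The 12 target genes of IRFs included interferon-stimulated genes and genes of antigen presentation. With TNF all 11 tested rose, with a median log2 change of 4.66 (all genes -0.03), among them *Isg15* (4.42, adjusted p = 5.72e-20), *Ifit2* (4.69), *Cxcl10* (5.84) and *Gbp2* (5.67). With GM-CSF 4 of 11 fell, *Isg15* (-1.01), *Mx1* (-3.09), *Ifit2* (-1.17) and *Ifit3* (-1.54), and the median was -0.45. *Mx1* was at 0 to 6.77 CPM in medium and 0 to 1.19 CPM with GM-CSF, so that its change rests on few counts. Against GM-CSF, TNF gave higher levels of all 11, with a median of 5.35, led by *Isg15* (5.43), *Ifit2* (5.86), *Tap1* (2.29) and *Cxcl10* (5.62) in order of p. LPS raised 10 of 11 in adult microglia (median 2.18), including *Gbp2* (1.99), *Isg15* (2.36), *Tap1* (0.99) and *Ifit1* (2.53). In tissue 9 of 12 rose (median 1.82), including *Ifit3* (1.54), *Ifit1* (2.14), *Isg15* (2.05) and *Tap1* (1.74). *Ciita*, the regulator of MHC class II genes, was too low to be tested in slice and adult microglia and had a log2 change of 0.51 in tissue (adjusted p = 0.331).

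**Figure D4:**
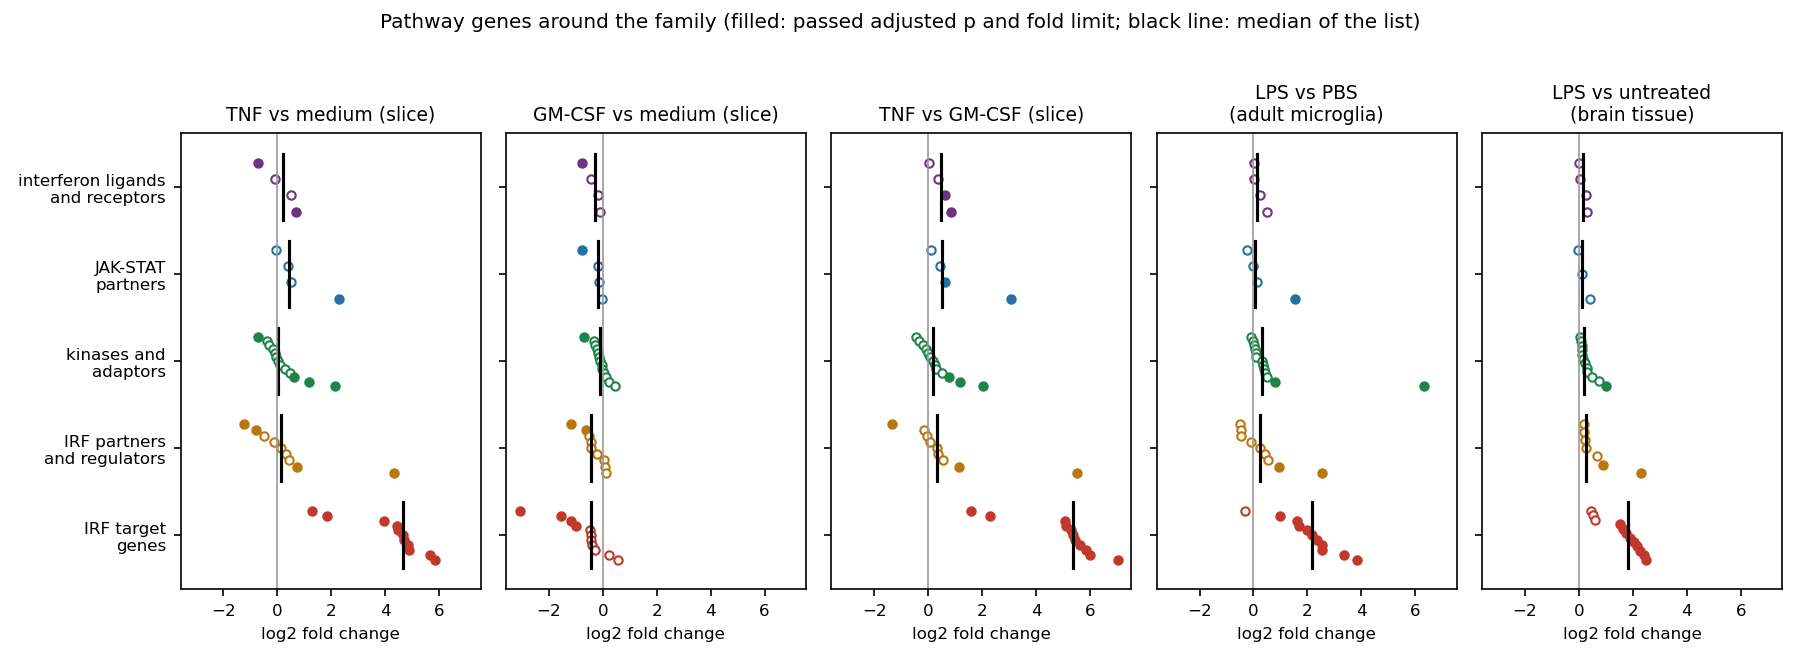
Log2 fold change (x axis) of the tested genes of 5 pathway lists (rows) in the 5 comparisons, filled where called, with the median of each list as a black line. The target genes lie right of 0 with TNF, where all 11 are filled, and mostly left with GM-CSF, where 4 are filled, while the kinases and adaptors lie mostly around 0.

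The genes most like each member across the 29 slice libraries were named by Pearson's r of log2(CPM + 1) over the 11312 other genes tested, as a description over libraries that share the treatments. For *Irf7* they included *Oasl2* (r = 0.989) and *Isg15* (0.987). For *Irf1* they were *Ifit3* (0.944), *Herc6* (0.940) and *Phf11b* (0.939), and for *Irf9* *Rtp4* (0.949), *H2-T23* (0.935) and *Cd82* (0.934). The members that did not pass with TNF had lower maxima. Because r ran across the treatment groups, that order largely restates the TNF calls. For *Irf2* the genes were *Ms4a14* (0.831), *Arfgef1* (0.733) and *Kmt5b* (0.732), and for *Irf8* *Rcc1* (0.806), *Lfng* (0.804) and *Tnfaip1* (0.793). For *Irf5* they were *Ube2z* (0.684), *Lypla2* (0.681) and *Slc35e4* (0.664), and for *Irf3* *Cryzl2* (0.688), *Dpagt1* (0.679) and *Mcrip1* (0.670).

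In the GENCODE M21 annotation of GRCm38, exons of 5 members overlap those of another gene. *Irf9* shares 123 bases, 2.28% of its exon bases, with *Rnf31* on the same strand. *Irf5* shares 411 bases (14.2%) with *Tnpo3*, *Irf1* 135 bases (3.40%) with *Gm17334*, *Irf3* 88 bases (2.56%) with *Bcl2l12* and *Irf7* 45 bases (1.19%) with *Phrf1*, all on the opposite strand. Whether counting used strand is not given in the sources used here, so reads in these stretches may come from either gene.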

How the data were processed

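RNA-seq was read from 3 deposited count tables. Microglia libraries were made with SMART-Seq v4 and Nextera XT kits and brain tissue libraries with a TruSeq mRNA kit. For slice microglia the submitters' processing notes name STAR 2.7.0a, featureCounts from Subread 1.6.4 and mm10, and the table holds raw counts as deposited by the authors. The adult and brain tables, on mm10, hold estimated counts as deposited by the authors, with 70872 and 69680 values that were not whole. These were rounded, which changed the totals by 0.00107% and 0.00113%. For these tables the aligner and counter were not given in the sources used here.

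Each table was fitted on its own with edgeR 4.0.16 in R 4.3.3 (TMM, filterByExpr at a minimum count of 10 and total of 15, robust quasi-likelihood test, Benjamini-Hochberg over all genes tested). Genes were called at adjusted p below 0.05 and a fold change over 1.5. This left 11313, 12987 and 15083 genes. The interaction was fitted over the 16 in vivo libraries. Scripts were tested on simulated data. Alternatives used DESeq2 1.42.0, limma 3.58.1 (voom), other scalings and filters, title codes, a replicate block and leaving out each library. Brain rows with no gene name (92) held no counts.

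The members and lists were chosen with earlier results of these data known. Named were the 8 members, the 3 genes most like each tested member, and per pathway list and comparison up to 4 called genes with the smallest adjusted p and genes not tested. Intervals are 95% intervals of the fit. Results for 1 item are not reported here.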

Additional observations from a re-analysis of the deposited data

Results flagged for a closer look

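Over all members together, 48 sets of 4 to 10 libraries of a group were examined, and 3 libraries lay far from the rest of their set. Chance flags about 1 set in 20, so 3 is near what chance gives. *Irf4* was at 6.02 CPM in replicate 8 of the medium slices, against 0 to 2.17 CPM in the others. *Irf2* was at 28.6 CPM in replicate 2 of LPS brain tissue, against 25.3 to 25.7 CPM. *Irf8* was at 6.11 CPM in replicate 1 of LPS brain tissue, against 7.24 to 7.40 CPM.

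The LPS effect differed between adult microglia and brain tissue for *Irf8*, by -1.11 on the log2 scale (adjusted p = 3.27e-06), and for *Irf5*, by -0.77 (adjusted p = 0.000916), in the edgeR interaction test. The share called over all genes was 19.7%, and 5 of 8 microglia markers were called lower too. Kits, read types and controls also differed between the tables and cannot be told apart from cells against tissue.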

How the results depend on the processing

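Of 17 called member values, 14 stayed past both limits in every setting run (41 per slice comparison, 16 per LPS comparison and 23 for the interaction). The exceptions were *Irf1* with GM-CSF in codes 2A and 2B only, where 1 member was called and *Irf1* had a log2 change of -0.44 (adjusted p = 0.139), *Irf7* in adult microglia with the replicate block (2.43, adjusted p = 0.0602), and *Irf1* in brain tissue without LPS replicate 3 (0.52). The replicate numbers did not pair the in vivo samples, since same-numbered libraries had deviations correlated at -0.0639 to 0.0368 (adult) and -0.0811 to 0.0377 (tissue). In the slice table the correlations ran from -0.0592 to 0.211. With no fold limit, 4 of 7 members tested were called with GM-CSF, 5 of 7 between the cytokines and 7 of 8 with LPS in microglia. Over all genes that setting called 2892 of 11313, 3486 of 11313 and 6703 of 12987, so these member counts are to be read beside those shares. With limma-voom the *Irf4* interaction was called (-1.03, adjusted p = 0.0190), with 3 to 6 counts per library on the tissue side.

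Sign changes were confined, among the settings run, to uncalled values near 0. For *Irf3* between the cytokines the values were -0.00409 with DESeq2 size factors, -0.17 with library totals, -0.025 without a filter, -0.00188 at a minimum count of 50, -0.00404 with DESeq2, -0.00102 with voom, -0.015 with title code as covariate and -0.23 in codes 2A and 2B. For *Irf2* with TNF they were -0.054 with library totals, -0.000376 at a minimum of 50, -0.022 with the replicate block and -0.086 in codes 1A and 1B. For *Irf5* between the cytokines they were -0.11 with library totals and -0.015 in codes 1A and 1B, and with GM-CSF -0.010 at a minimum of 50 and -0.057 in codes 1A and 1B. With TNF in codes 1A and 1B *Irf3* was 0.046 and *Irf5* -0.072. Leaving out single libraries gave -0.029 to 0.041 for *Irf5* with GM-CSF, -0.052 to 0.076 for *Irf3* between the cytokines, -0.017 to 0.061 for *Irf2* with TNF and -0.11 to 0.025 for *Irf3* in the interaction. The cause was not tested.

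Over all genes, dropping the fold limit gave 4476 calls for TNF, 2892 for GM-CSF, 3486 between the cytokines, 6703 and 1533 for LPS in microglia and tissue and 5136 for the interaction, against 2353, 1222, 1833, 3563, 479 and 3289. Codes 2A and 2B alone gave 785 for GM-CSF, and a minimum count of 50 gave 288 in brain tissue. Library totals moved the median log2 difference of all genes between the cytokines from -0.023 to -0.194 and with GM-CSF from -0.039 to 0.066. *Irf4* was too low to be tested in slices and brain tissue. Without a filter it had -1.35 with TNF, -0.92 with GM-CSF, -0.43 between the cytokines and -0.22 in tissue (adjusted p from 0.395 to 0.886).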
